A study of Mus musculus with 4 samples.

Results

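The genes described here are 9 markers that mouse liver uses before birth or turns on after damage. Afp, H19, Igf2, Gpc3 and Dlk1 mark the fetal liver, and Cd24a, Spp1, Ly6d and Tff3 have been used as markers of injured, regenerating or fatty liver. They were chosen by symbol, and all probe sets that the platform annotation gives to them were taken, which gave 16 of 45037 probe sets for 8 of the 9 genes. Spp1, which encodes the secreted matrix protein osteopontin, is not analysed here. Livers came from Baf60a LKO mice, which carry a liver-specific knockout of Baf60a, and from wild-type (WT) mice, all on a C57BL/6 background. All mice ate a high-fat diet for 10 weeks from 6 weeks of age, and livers were taken after a night without food. Smarcd1 encodes BAF60a, which belongs to the nucleosome-moving SWI/SNF complex. Each genotype had 2 Affymetrix Mouse Genome arrays, each with its own pool of liver RNA. The sources used here do not give the number of mice in a pool or the promoter driving Cre.

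The pool is therefore the unit of replication, and p-values measure only how pools vary. All levels below are deposited log2 values, so a step of 1 is a doubling. On the brighter probe set of Smarcd1 the levels were 5.34 and 5.30 in Baf60a LKO, against 5.62 and 5.88 in WT, a difference of -0.43 ± 0.14 that did not pass (limma, adjusted p = 0.564). WT replicate 1 stood apart from the other arrays. Its lower quartile was 3.09, against 2.95 and 2.93 in Baf60a LKO and 2.94 in WT replicate 2. Dim probe sets thus tend to read higher on that array. Its upper quartile was 6.26, against 6.45 and 6.47 in Baf60a LKO and 6.44 in WT replicate 2. Probe sets near that level thus tend to read lower on it. The 10 hepatocyte markers, among them Alb and Ttr, were all well above background in both genotypes, with a median difference of 0.07.

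Afp encodes alpha-fetoprotein, the fetal relative of serum albumin, and is silenced after birth by repressors such as Zhx2 and Zbtb20. H19, a long noncoding RNA, and Igf2, a fetal growth factor, are neighbouring imprinted genes, H19 expressed from the maternal copy and Igf2 from the paternal one. Gpc3 is a heparan sulfate proteoglycan that curbs growth signals, and Dlk1 is a membrane protein of hepatoblasts with repeats like those of Notch ligands. Cd24a is a small glycoprotein of progenitor, bile duct and blood cells, Ly6d is a small surface protein of lymphoid progenitors and epithelia, and Tff3 is a secreted trefoil peptide made by goblet and duct cells. Return of fetal genes in adult liver is a known feature of regeneration and liver cancer.

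Afp shares its stretch of chromosome 5 with Alb, the albumin gene beside it, and the promoters of the pair are printed to show the DNA in front of a gene known for its high level before birth and of one that stays high in the adult. The 250 bases before each start are from RefSeq, build GRCm38.p6, forward strand, at chr5:90490464-90490713 for Afp and chr5:90460620-90460869 for Alb. Capitals mark the motifs GTTAAT and GTTAAC, which resemble sites of the liver factor HNF1, with TATAAA and CCAAT, each searched on both strands, and no matches overlap.
Afp: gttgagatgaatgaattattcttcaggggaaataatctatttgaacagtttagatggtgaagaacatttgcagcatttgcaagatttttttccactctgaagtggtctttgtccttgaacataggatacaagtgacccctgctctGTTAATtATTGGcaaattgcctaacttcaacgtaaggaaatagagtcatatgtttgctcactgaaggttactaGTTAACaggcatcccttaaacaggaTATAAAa
Alb: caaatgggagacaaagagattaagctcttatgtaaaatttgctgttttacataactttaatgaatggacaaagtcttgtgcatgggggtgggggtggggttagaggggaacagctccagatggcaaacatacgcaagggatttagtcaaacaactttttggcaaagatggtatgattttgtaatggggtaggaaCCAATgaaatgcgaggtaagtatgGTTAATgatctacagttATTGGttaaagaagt
Afp held 1 GTTAAT, 1 GTTAAC, 1 TATAAA and 1 CCAAT on the reverse strand, and Alb held 1 GTTAAT and 2 CCAAT. The Afp TATAAA lay 7 to 2 bases before the annotated start, and the Alb GTTAAT 32 to 27 bases before it. Bases past each annotated start were not searched, so the counts hold for these windows only. Of the 32851 promoter windows of this length in the table, 6.43% held GTTAAT, 2.56% GTTAAC, 12.37% TATAAA and 33.85% CCAAT.

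Background was gauged on each array by 27 probe sets for Bacillus subtilis transcripts, whose 95th percentile was 2.63 and 2.71 in Baf60a LKO and 2.86 and 2.63 in WT. By that gauge 13 of the 16 marker probe sets were clear of background on all 4 arrays. A second gauge of 80 probe sets for olfactory and vomeronasal receptors, mouse genes of sensory neurons, had higher 95th percentiles of 4.20 and 4.18 in Baf60a LKO and 4.51 and 4.20 in WT. By that stricter gauge 3 of 16 were clear on all arrays, 1 each for Afp, Ly6d and Tff3. The receptor probe sets are more like the marker probe sets, being designed to mouse transcripts. The fetal markers Igf2, Gpc3, Dlk1 and H19 thus stood between these gauges in both genotypes.

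**Figure D1:**
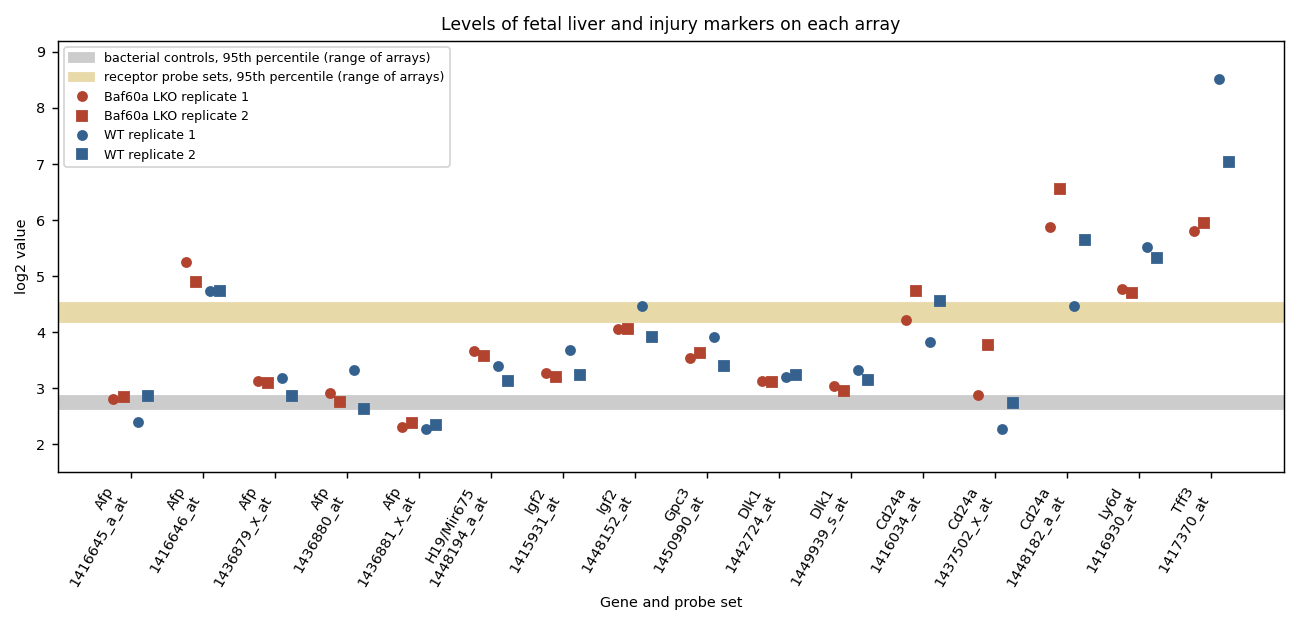
Log2 level of each of the 16 marker probe sets (horizontal axis, by gene) on the 4 arrays, with Baf60a LKO in red and WT in blue, and bands for the 95th percentile of both background gauges over the arrays. Tff3, Ly6d and 1 Afp probe set lie above both bands on every array, and the other fetal markers lie at or below the receptor band.

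None of the 16 marker probe sets passed the threshold of adjusted p under 0.05 (limma over 45037 probe sets), where 0.187% of all probe sets passed. At an unadjusted p under 0.05 there were 5 of 16, for Tff3, Ly6d, 2 of Cd24a and H19, against 8.17% of all probe sets. The markers were chosen with earlier results of these data known, so that comparison is not independent. The differences split evenly, 8 positive and 8 negative, with a median of -0.02 against -0.0069 over all probe sets, and 12 of 16 were smaller than 0.4 in either direction. In 4 probe sets both Baf60a LKO arrays lay above both WT arrays, as did 19.7% of all probe sets, and in 4 both lay below, as did 19.4%. In bulk liver, fewer cells of a type and less RNA per cell cannot be told apart.

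**Figure D2:**
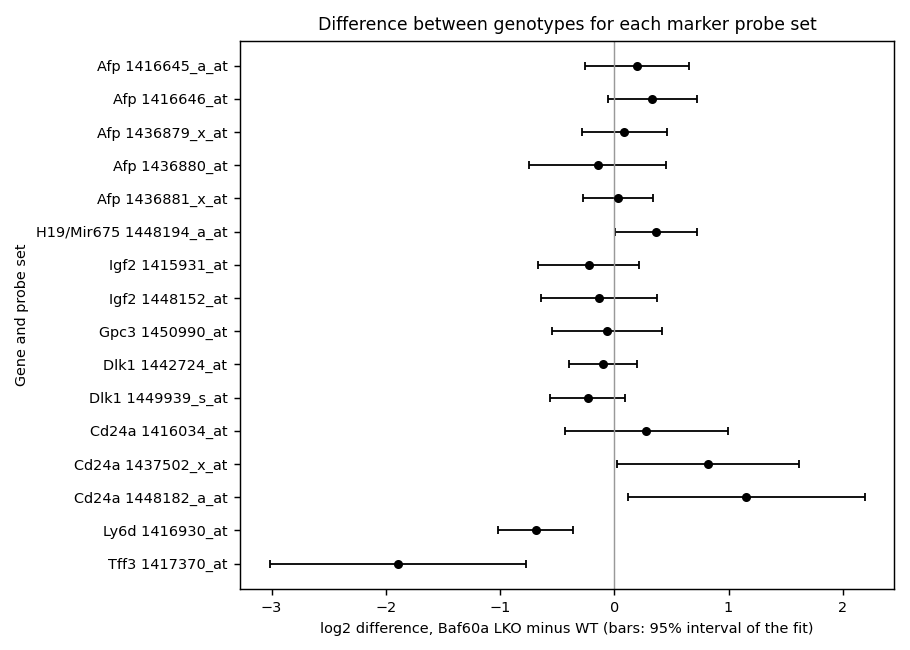
Log2 difference, Baf60a LKO minus WT, of each marker probe set (vertical axis), with the 95% interval of the limma fit as bars. Tff3 lies at -1.89 and Ly6d at -0.69, the brightest Cd24a probe set lies at 1.16, and intervals for Afp, Igf2, Gpc3 and Dlk1 include 0.

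Afp lay low in both genotypes. Its brightest probe set, 1416646_at, read 5.24 and 4.89 in Baf60a LKO, against 4.73 and 4.73 in WT. The Baf60a LKO arrays were the higher, and the groups did not overlap. The difference was 0.33 ± 0.16 (SE), with a 95% interval of -0.06 to 0.73 (limma, adjusted p = 0.640). With 1 array left out it ran from 0.16 to 0.51, lowest without Baf60a LKO replicate 1. On the other 4 Afp probe sets the levels ran from 2.31 to 3.13 in Baf60a LKO and from 2.28 to 3.33 in WT, and the groups overlapped on all 4. Of those 4, 1436881_x_at lay under the bacterial gauge on all 4 arrays, and 1416645_a_at lay under it on WT replicate 1. Their differences ran from -0.14 to 0.20, and none of the 4 passed.

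The neighbours of Afp and its repressors did not pass. Alb read 14.13 and 14.17 in Baf60a LKO, against 14.05 and 14.08 in WT, and Afm, the afamin gene on the other side of Afp, differed by -0.08 ± 0.13. Gc, the vitamin D binding protein gene, is not analysed here. Of 5 genes on the list of Afp repressors and their relatives, 0 rose, 0 fell and 5 did not pass over genes. All 5 were above the receptor gauge. Zhx2, which represses Afp, H19 and Gpc3 in adult mouse liver, read 5.91 and 5.86 in Baf60a LKO, against 6.08 and 6.16 in WT (-0.24 ± 0.12, limma adjusted p = 0.553). Zbtb20, a zinc finger repressor of Afp, differed by -0.13 ± 0.14, and by 0.01 without Baf60a LKO replicate 1.

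H19 was read by a single probe set that the annotation gives jointly to H19 and to Mir675, the microRNA gene inside it, so the value belongs to both names. It read 3.67 and 3.58 in Baf60a LKO, against 3.40 and 3.12 in WT. The Baf60a LKO arrays were the higher, yet all 4 lay below the receptor gauge. The difference of 0.36 ± 0.15 had a 95% interval of 0.0022 to 0.73 (limma, adjusted p = 0.610), and was 0.23 without WT replicate 2. The 2 mature microRNAs cut from H19 are shown because the array reads the long transcript and not these short products. RefSeq gives them, 5′ to 3′, with the seed (bases 2 to 8) in capitals, and their seeds differ.
mmu-miR-675-5p: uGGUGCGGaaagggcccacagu
mmu-miR-675-3p: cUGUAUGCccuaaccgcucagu

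Igf2, which lies beside H19, read 4.05 and 4.05 in Baf60a LKO on its brighter probe set, 1448152_at, against 4.47 and 3.91 in WT. WT replicate 1 was the highest array and WT replicate 2 the lowest, so the groups overlapped. The difference was -0.14 ± 0.20, with a 95% interval of -0.64 to 0.37, and it was 0.15 without WT replicate 1. The dimmer probe set, 1415931_at, read 3.27 and 3.20 in Baf60a LKO, against 3.69 and 3.24 in WT, a difference of -0.22 ± 0.18, which was -0.0002 without WT replicate 1. Mrpl23, a mitochondrial ribosome gene on the other side of H19, differed by -0.08 ± 0.11. Igf2os, the gene on the opposite strand at Igf2, differed by -0.43 ± 0.15 (adjusted p = 0.452).

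No gene of the IGF axis passed. Of the 19 measured genes of the IGF axis, 0 rose, 0 fell and 19 did not pass, with a median of -0.14 against 0.00 over all genes, and 15 differences were negative. The median was -0.08 without WT replicate 1. Igfbp1, a binding protein of fasting liver, read 8.74 and 8.99 in Baf60a LKO, against 9.67 and 10.36 in WT (-1.15 ± 0.25, limma adjusted p = 0.219). Igfbp2, another IGF carrier, read 10.92 and 10.71 in Baf60a LKO, against 11.70 and 11.99 in WT (-1.03 ± 0.16, adjusted p = 0.104). In both genes the groups did not overlap. Igfbp6 differed by -0.50 and Pappa, a protease that cuts IGF binding proteins, by -0.42. Pappa lay below the receptor gauge on all 4 arrays, and Igfbp6 on all but WT replicate 2.

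Gpc3 read 3.54 and 3.63 in Baf60a LKO, against 3.91 and 3.39 in WT. The WT arrays bracketed the Baf60a LKO arrays, and the difference was -0.06 ± 0.20 (limma, adjusted p = 0.945), or 0.20 without WT replicate 1. All 4 levels lay below the receptor gauge. Among the other glypicans, Gpc1, a cell-surface proteoglycan of the same family, fell in Baf60a LKO livers. It read 6.16 and 6.30 in Baf60a LKO, against 7.82 and 8.09 in WT with both Baf60a LKO arrays far below both WT arrays. The fall was 3.32-fold (log2 difference -1.73 ± 0.14, limma adjusted p = 0.0181 over 18193 genes). Of the 5 measured paralogs of Gpc3, 1 fell, 0 rose and 4 did not pass, where 0.247% of all genes fell and 0.236% rose. Gpc4, the direct chromosomal neighbour of Gpc3, read 9.33 and 9.41 in Baf60a LKO, against 9.24 and 9.26 in WT, a difference of 0.12 ± 0.11. Gpc5 differed by 0.16 ± 0.15 and Gpc2 by -0.02 ± 0.13, both below the receptor gauge, and Gpc6 by -0.06 ± 0.16. Gpc1 has 1 probe set, and its adjusted p was 0.0623 with a replicate block and 0.114 to 0.264 with 1 array left out, while the difference stayed between -1.87 and -1.60.

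**Figure D3:**
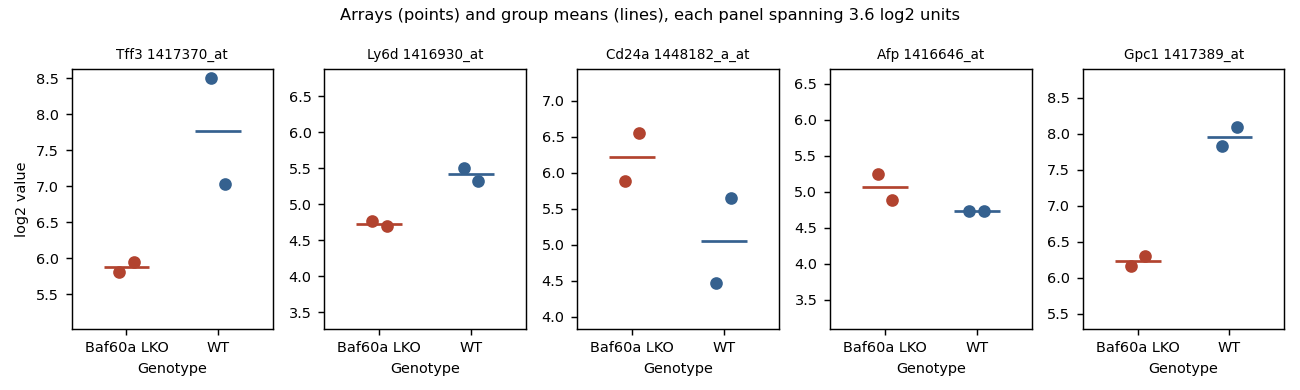
Log2 levels of 4 marker probe sets and of Gpc1 on each array (points) with group means (lines), Baf60a LKO left of WT, each panel spanning 3.6 log2 units. Gpc1 and Ly6d show little spread between pools, while WT pools differ widely for Tff3 and Cd24a.

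Dlk1 was dim in both genotypes. Its probe set 1442724_at read 3.12 and 3.12 in Baf60a LKO, against 3.20 and 3.23 in WT, and 1449939_s_at read 3.05 and 2.96 in Baf60a LKO, against 3.32 and 3.14 in WT. The Baf60a LKO arrays were the lower on both, by 0.10 ± 0.12 and 0.23 ± 0.13 (limma, adjusted p = 0.828 and 0.662). All of these levels lay below the receptor gauge. Meg3, the maternally expressed RNA next to Dlk1, read 5.88 and 5.79 in Baf60a LKO, against 5.91 and 5.78 in WT. Of the 14 measured genes of the DLK and Notch list, 0 rose, 0 fell and 14 did not pass, with a median of -0.14, and of -0.06 without WT replicate 1. The Notch ligand gene Dll1 differed by -0.66 ± 0.13 and the Notch target Hes1 by 0.44 ± 0.13. The receptor Notch1 differed by -0.35 and the ligand Dll4 by -0.32.

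Of 20 other imprinted growth genes, 0 rose, 0 fell and 20 did not pass, with 10 positive and 10 negative differences and a median of -0.0019. Peg3, a paternally expressed zinc finger gene, read 7.19 and 6.85 in Baf60a LKO, against 5.64 and 5.90 in WT. The groups did not overlap, and the difference was 1.25 ± 0.17 (limma, adjusted p = 0.0790), or 0.74 with its probe sets averaged. Sgce, the paternally expressed epsilon-sarcoglycan gene, differed by 0.65 ± 0.14 (adjusted p = 0.233). Mirg differed by -0.40 with overlapping groups, or by -0.05 without WT replicate 1, and Kcnq1ot1, an antisense RNA of another imprinted cluster, by 0.35.

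Other genes of the fetal liver did not pass either. Of 19 measured, 0 rose, 0 fell and 19 did not pass, with a median of -0.16, and 13 lay below the receptor gauge on all 4 arrays. The median was -0.06 without WT replicate 1. Igdcc4, a surface marker of fetal hepatoblasts, differed by -0.32 ± 0.22, the paternally expressed Mest by -0.30 ± 0.15, and the embryonic globins Hbb-bh1 and Hbb-y by -0.30 and -0.25. With probe sets averaged Igdcc4 differed by -0.09. Igdcc4, Mest, Hbb-bh1 and Hbb-y were all among the genes below the receptor gauge on all 4 arrays.

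Tff3 showed the widest difference of the markers, but the WT pools were far apart. It read 5.81 and 5.95 in Baf60a LKO, against 8.51 and 7.03 in WT. Both Baf60a LKO arrays lay below both WT arrays, and all 4 were above both gauges. The difference was -1.89 ± 0.45, a 3.71-fold lower level with a 95% interval of -3.02 to -0.77, which did not pass (limma, unadjusted p = 0.00646, adjusted p = 0.415). It was -1.15 without WT replicate 1 and -2.63 without WT replicate 2. The related trefoil genes did not pass: Tff1 read 7.01 and 6.80 in Baf60a LKO, against 7.32 and 6.82 in WT, and Tff2, the gene next to Tff3, differed by -0.31 ± 0.18. Of 8 goblet and intestinal markers, 0 rose, 0 fell and 8 did not pass, with a median of -0.07, and of 0.10 without WT replicate 1. Vil1, the gene of the microvillus protein villin, read 4.77 and 4.46 in Baf60a LKO, against 3.83 and 3.71 in WT. It lay higher in Baf60a LKO, opposite to Tff3 (0.85 ± 0.15, limma unadjusted p = 0.00164, adjusted p = 0.142). Both WT arrays of Vil1 lay below the receptor gauge. The goblet cell genes Muc2 (-0.22), Agr2 (-0.16), Clca1 (0.04) and Spink4 (0.05) lay below the receptor gauge on all 4 arrays. Summed over the list after undoing the log, they came to 2338 and 2228 in Baf60a LKO and 2570 and 2589 in WT, most of it from Fabp2, a fatty acid binding protein gene that read 11.13 and 11.06 in Baf60a LKO and 11.27 and 11.29 in WT.

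The 3 genes whose pattern over the 4 arrays came nearest to that of Tff3 were Cyp7b1, Hao2 and Slc22a7, at distances of 0.62, 0.93 and 0.94. The distance is Euclidean over 4 log2 values, each gene centred on its own mean. Cyp7b1, an oxysterol hydroxylase of bile acid synthesis, read 9.25 and 9.28 in Baf60a LKO, against 11.81 and 11.10 in WT, so WT replicate 1 was the highest array as for Tff3. Hao2, a peroxisomal hydroxyacid oxidase, read 4.24 and 4.29 in Baf60a LKO, against 6.09 and 4.39 in WT. Slc22a7, an organic anion transporter, read 6.96 and 7.80 in Baf60a LKO, against 9.07 and 8.45 in WT.

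Ly6d read 4.77 and 4.70 in Baf60a LKO, against 5.51 and 5.33 in WT. The groups lay apart with little spread inside each, and all 4 arrays were above both gauges. The difference was -0.69 ± 0.13, a 1.61-fold lower level with a 95% interval of -1.02 to -0.36. It had the lowest adjusted p among the markers and did not pass (limma, unadjusted p = 0.00232, adjusted p = 0.277). The value ran from -0.78 to -0.60 with 1 array left out. Of 11 measured relatives in the Ly6 family, 0 rose, 0 fell and 11 did not pass. Their median was -0.23, with 9 negative differences, and 6 of the 11 lay below the receptor gauge on all 4 arrays. The relatives Lypd2 and Ly6g6c lay below it on both Baf60a LKO arrays. The median was -0.10 without WT replicate 1, where Lypd2 was -0.24, Ly6g6c -0.16 and Lynx1 -0.11. Lypd2 differed by -0.43 ± 0.17, Ly6g6c by -0.37 ± 0.17, Gpihbp1, which holds lipoprotein lipase on capillaries, by -0.36 ± 0.11, and Lynx1, the gene next to Ly6d, by -0.34 ± 0.18. Of 7 B cell markers, 0 rose, 0 fell and 7 did not pass, with a median of -0.14, and 5 lay below the receptor gauge on all 4 arrays. Igll1, a pre-B cell gene, differed by -0.63, or -0.29 without WT replicate 1, and Cd79b by -0.36, or -0.21 without Baf60a LKO replicate 1. Igll1 lay below the receptor gauge on both Baf60a LKO arrays. The list's summed level was 92.0 and 97.9 in Baf60a LKO and 120.8 and 105.5 in WT, and the part of B cells in the Ly6d difference was not tested.

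Cd24a was higher in Baf60a LKO on all 3 of its probe sets by the group means, without passing. The brightest, 1448182_a_at, read 5.88 and 6.55 in Baf60a LKO, against 4.46 and 5.65 in WT. The groups did not overlap, but WT replicate 2 lay nearer to Baf60a LKO replicate 1 than to WT replicate 1. WT replicate 1 lay just below the receptor gauge, and the other arrays lay above it. The difference was 1.16 ± 0.42, a 2.23-fold higher level with a 95% interval of 0.12 to 2.19 (limma, adjusted p = 0.585). It was 0.56 without WT replicate 1 and 1.75 without WT replicate 2. The probe set 1437502_x_at, whose name marks probes that can match other transcripts, read 2.88 and 3.77 in Baf60a LKO, against 2.26 and 2.74 in WT. Its WT replicate 1 lay under the bacterial gauge, so 1 of the 2 WT arrays measured it, and all 4 arrays lay under the receptor gauge (adjusted p = 0.603). Without Baf60a LKO replicate 2 its difference was 0.38, against 0.82 with all arrays. With the bacterial gauge in place of the WT replicate 1 value, the difference over all arrays was at least 0.52. The last, 1416034_at, read 4.22 and 4.74 in Baf60a LKO, against 3.83 and 4.56 in WT, overlapping, with a difference of 0.28 ± 0.29, and of -0.08 without WT replicate 1.

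Nearest to the brightest Cd24a probe set over the 4 arrays were Sox4, S100a8 and Trp53bp1, at distances of 0.24, 0.31 and 0.42. Sox4, a progenitor transcription factor gene, read 5.53 and 6.14 in Baf60a LKO, against 4.37 and 5.35 in WT, a difference of 0.97 ± 0.36 that was -0.01 with its probe sets averaged. S100a8, a neutrophil calcium-binding protein gene, read 5.97 and 6.58 in Baf60a LKO, against 4.90 and 5.87 in WT. For 1437502_x_at the nearest were Celsr1, Cyb561 and Flvcr1, at 0.18, 0.28 and 0.28.

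Of 9 measured cholangiocyte markers, 0 rose, 0 fell and 9 did not pass, with a median of 0.39 and 8 positive differences. Pkhd1, the fibrocystin gene of bile duct cilia, read 5.77 and 6.45 in Baf60a LKO, against 4.45 and 5.09 in WT (1.34 ± 0.30). Epcam, an epithelial adhesion gene, differed by 1.17 ± 0.21, or 0.40 with its probe sets averaged. The tight junction gene Cldn7 differed by 0.89 ± 0.16. Tspan8 went the other way, at -0.40 ± 0.17, or -0.27 with its probe sets averaged. In WT, Cldn7 lay below the receptor gauge on both arrays, and Pkhd1 and Epcam did so on WT replicate 1. Krt7 and Cftr lay below the receptor gauge on all 4 arrays, and Krt19 on all but Baf60a LKO replicate 2. The summed level of the list was 397.1 and 452.0 in Baf60a LKO and 269.9 and 310.4 in WT.

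Among 7 neutrophil markers, 0 rose, 0 fell and 7 did not pass, with 5 positive and 2 negative differences. The median was 0.46, and 0.18 without WT replicate 1. Their summed level was 299.0 and 336.9 in Baf60a LKO and 220.2 and 269.1 in WT. S100a8 differed by 0.89, Ngp by 0.71, S100a9 by 0.64 and Camp by 0.46, while Mpo differed by -0.35 and Csf3r by -0.07. Mpo lay below the receptor gauge on all 4 arrays, and Camp on all but Baf60a LKO replicate 2. Without WT replicate 1 the values were 0.40 for S100a8, 0.18 for S100a9 and -0.14 for Mpo, and without Baf60a LKO replicate 2 Camp was 0.20. Among 6 erythroid markers, another source of Cd24a, none passed, with a median of -0.11 and sums of 825.9 and 802.7 in Baf60a LKO and 790.6 and 763.8 in WT. The part of bile duct, neutrophil or erythroid cells in the Cd24a difference was not tested.

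Genes of liver injury and ductular reaction went both ways. Of 21 measured, 0 rose, 0 fell and 21 did not pass, with 12 positive and 9 negative differences and a median of 0.05. Lcn2, an acute phase lipocalin gene, differed by 1.29 ± 0.68 with overlapping groups, or by 0.27 without Baf60a LKO replicate 2, and the cell cycle inhibitor gene Cdkn1a by -0.70 ± 0.16. Of 10 receptors of osteopontin none passed, and the integrin gene Itga5 differed by 0.42, Itgav by 0.29 and Cd44 by 0.29, or by 0.05, 0.10 and 0.07 with probe sets averaged. The 4 relatives of Spp1, Ibsp, Dmp1, Dspp and Mepe, lay below the receptor gauge on all 4 arrays.

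Markers of other cell types that carry such genes did not pass. For 8 markers of lipid-associated macrophages the median was -0.31, with Cd9 at 0.88, Fabp5 at -0.57, Mmp12 at -0.56 and Gpnmb at -0.53. Mmp12 lay below the receptor gauge on all 4 arrays. The groups overlapped for Fabp5, which was -0.21 without Baf60a LKO replicate 2. For 11 macrophage markers the median was 0.09, for 12 stellate cell markers -0.02, for 7 endothelial markers -0.10, for 6 T and NK cell markers 0.06 and for 6 pancreas markers 0.03. Over all 24 lists 216 genes were measured, of which Gpc1 was the 1 that fell and 0 rose (limma, over genes). At an unadjusted p under 0.05 there were 34 of these, or 15.7%, against 10.2% of all genes. The lists were chosen with earlier results of these data known, so that comparison of shares is not independent. With probe sets averaged per gene in place of the brightest one, Sgce differed by 0.40, Kcnq1ot1 by 0.10, Mirg by -0.20, Dll4 by -0.15, Pappa by -0.25 and Gpnmb by -0.17.

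**Figure D4:**
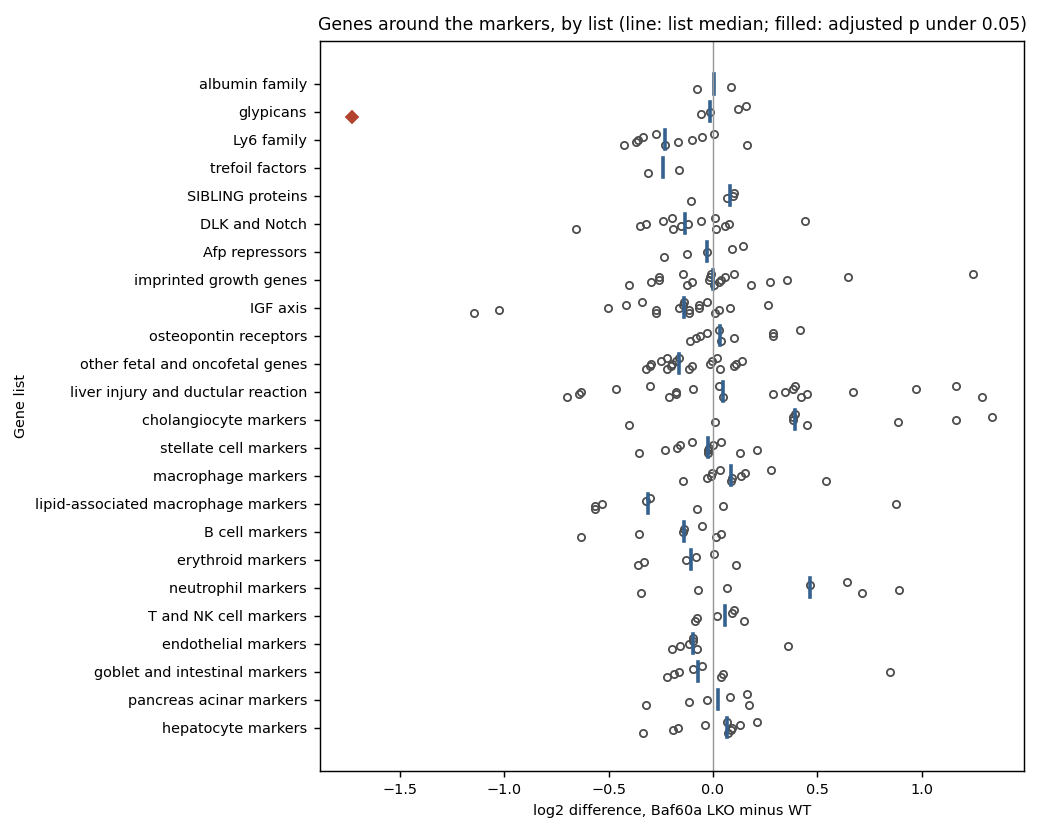
Log2 difference, Baf60a LKO minus WT, of each measured gene (points) in the 24 lists around the markers (vertical axis), with the list median as a line and genes past adjusted p 0.05 as filled diamonds. Gpc1 among the glypicans, at -1.73, is the only filled point.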

How the data were processed

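The deposited series table holds a log2 level for each probe set on each array, judged by the range of values. RMA, affy and limma are named, without versions, in the submitters' processing notes. Low levels show smaller differences than the RNA has under RMA. Detection calls were not analysed here, and arrays hold no read depth, so the number of arrays limits precision. Of 45101 probe sets, 64 controls were left out. The platform annotation gave 1 symbol to 34945, several to 932 and did not list 9160; symbols were updated through RefSeq (GRCm38.p6) by Entrez number for 34741, and 204 kept theirs.

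Probe sets, and genes represented by their brightest probe set (18193), were each fitted by genotype in R 4.3.3 using limma 3.58.1 (lmFit and eBayes, 2-sided) with Benjamini-Hochberg adjustment over all of them. The fit had 2 residual and 3.745 prior degrees of freedom. Errors beside differences are standard errors. Figures used matplotlib 3.10.9 in Python 3.11.15. The named genes are the markers, members of each list past the threshold and up to 4 more by size, and the 3 genes nearest in pattern to each of 3 marker probe sets. Chromosomal neighbours and defining cell type markers near background (Clca1, Spink4, Krt19, Cftr) were named after their values were seen. So were Mpo, Csf3r and Tspan8, which lay opposite to their lists. The markers and lists were chosen with earlier results of these data known.

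The fit was tested on simulated data. Alternatives were 3 normalizations, the brighter 50%, eBayes with trend and robust settings, the replicate number as a block, averaged probe sets, no _x_at or _s_at probe sets, other background gauges and each array left out.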

Additional observations from a re-analysis of the deposited data

Results flagged for a closer look

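Control probe sets for bacteriophage P1 Cre, which take no part in the comparisons above, read higher in Baf60a LKO than in WT. The brightest of them read 5.87 and 6.22 in Baf60a LKO, against 2.80 and 2.48 in WT, a difference between means of 3.41 with no test. Both WT arrays lay under the bacterial gauge, so the level was at least 9.86-fold higher in Baf60a LKO, with that gauge in place of the WT values. Over all the Cre probe sets the differences between means were 3.41, 2.08, 1.26 and 0.65. The smallest was on a probe set that read 2.90 and 2.64 in Baf60a LKO, the latter under the bacterial gauge. Signal was thus present outside the main measurement, above its level in WT. The arrays labelled Baf60a LKO carry more Cre signal than those labelled WT. These are control probe sets of the array, and the source of their signal was not tested.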

How the results depend on the processing

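No marker probe set passed under any of the other settings run, where the lowest adjusted p was 0.148 (limma). Of 161 marker differences recomputed, 9 changed sign, 8 of them with 1 array left out, and Gpc3 was 0.0109 after cyclic loess. With 1 array left out the differences of the 7 probe sets that changed sign ran from -0.0425 to 0.44 (Afp 1416645_a_at), -0.0693 to 0.25 (Afp 1436879_x_at), -0.49 to 0.20 (Afp 1436880_at), -0.0088 to 0.0694 (Afp 1436881_x_at), -0.42 to 0.15 (Igf2 1448152_at), -0.32 to 0.20 (Gpc3) and -0.0841 to 0.65 (Cd24a 1416034_at). Of marker probe sets, 13 were clear of background by the bacterial gauge, 3 by the receptor gauge and 1, Tff3, by the highest bacterial control. Over all probe sets 84 passed, against 139 after another quantile normalization, 162 after loess, 146 with array medians subtracted, 173 with a trended and robust eBayes, 4 with a replicate block and 0 with any array left out (1196 to 10697 at an unadjusted p under 0.05). Over genes 88 passed, against 142 after loess, 154 with medians subtracted, 216 with the trended eBayes, 19 with a replicate block and 0 to 17 with an array left out, which leaves a lone pool assumed to vary like the other group. The cause of these changes was not tested. The labels number the pools but name no shared origin, and deviations of same-numbered arrays correlated at 0.147, so the pools were not treated as paired. Most markers lie near background, which limits what these arrays can show of them.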
